A study of Mus musculus with 6 samples.

Results

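The genes examined were 10 members of the MHC class II antigen presentation machinery, chosen by name: H2-Aa, H2-Ab1, H2-Eb1, H2-DMa, H2-DMb1, H2-DMb2, H2-Oa, H2-Ob, Cd74 and Ciita. All 10 were present among the 12431 genes of the count table, and all 10 were among the 10514 genes that passed the filter on low counts. RNA was sequenced from follicular B cells, which were sorted from spleens of adult male mice as CD23+ cells and cultured for 1 h in complete RPMI without stimulation. The WT group held 3 mice that were Gpr174+/Y. The KO group held 3 mice that were Gpr174-/Y, in which the coding exon of Gpr174 gave way to a tdTomato reporter. The mutation was made in embryonic stem cells and backcrossed to C57BL/6J, and it is carried by every cell of the mouse, so that an effect within the B cells cannot be told apart from one that came through other cells. GPR174 is an X-linked G protein-coupled receptor for lysophosphatidylserine. Libraries were 3′ end libraries and held 8452460 to 10944833 counts each. On the first principal component, which held 40.02% of the variance of the 500 most variable genes, WT replicate 2 scored 32.5 and the other libraries -8.18 to -4.33, so results that turn on this library are given with and without it. Gpr174 itself was still counted in KO, at 99.8 to 100.2 CPM against 121.5 to 135.9 CPM in WT. Its counts can come from the 3′ end outside the replaced exon and gave no check of the labels. Cr2, the gene for CD21/35, was at 980.8 to 1166 CPM although the labels give the cells as CD21/35-, while Fcer2a, the gene for CD23, was at 403.4 to 571.0 CPM.

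MHC class II molecules are heterodimers of an α and a β chain that present peptides to CD4+ T cells. The chains assemble in the endoplasmic reticulum with the invariant chain, the product of Cd74, which blocks the groove and directs the complex to endosomes. There the invariant chain is degraded to the CLIP fragment, which H2-DM exchanges for peptide, while H2-O, a partner found mainly in B cells, inhibits H2-DM. CIITA, the product of Ciita, is the coactivator that switches these genes on. It does not bind DNA itself but docks on a complex of RFX, CREB and NF-Y assembled on the X and Y boxes of class II promoters. B cells express this set of genes constitutively.

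The X and Y boxes are shown here because they are the sequence feature through which CIITA acts on the other members. The RefSeq promoter table (GRCm38.p6, 250 bases before to 50 bases after a gene's start) held 7 of the 10 members. H2-Ab1, Cd74 and Ciita were not among them. Both strands were searched for a Y box (TGATTGG), an X box core (AGCAAC) and a full CRE (TGACGTCA), motifs whose letters do not overlap one another and which were chosen after the sequences had been read. A Y box was found in 6 of the 7 members, against 7.82% of 32851 promoters of the same length. An X box core followed within 10 to 40 bases by a Y box was found in H2-Eb1, H2-Oa and H2-Ob, against 0.107% of promoters. H2-Aa held a full CRE, against 1.79% of promoters, and no exact X box core. The letters ggcaac, which differ from the core in their first letter, stand shortly before that CRE. Both promoters listed for H2-DMa held none of the 3 motifs. Each stretch below is 67 bases, read 5′ to 3′ on the gene's strand, with matches to the 3 motifs in capitals:
H2-Aa: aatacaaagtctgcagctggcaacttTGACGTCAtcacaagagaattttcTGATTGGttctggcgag
H2-Eb1: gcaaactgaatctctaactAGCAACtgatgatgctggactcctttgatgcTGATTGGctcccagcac
H2-Oa: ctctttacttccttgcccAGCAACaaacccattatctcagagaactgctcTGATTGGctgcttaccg
H2-Ob: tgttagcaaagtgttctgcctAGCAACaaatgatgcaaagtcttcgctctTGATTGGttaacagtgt
H2-DMb1: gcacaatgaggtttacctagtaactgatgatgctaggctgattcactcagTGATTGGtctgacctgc
H2-DMb2: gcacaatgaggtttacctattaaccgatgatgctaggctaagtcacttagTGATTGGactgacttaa

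In GRCm38.p6 these stretches lie at chr17:34287857-34287923 (minus strand) for H2-Aa, and on the plus strand at chr17:34305756-34305822 for H2-Eb1, chr17:34092284-34092350 for H2-Oa, chr17:34238796-34238862 for H2-Ob, chr17:34153078-34153144 for H2-DMb1 and chr17:34145107-34145173 for H2-DMb2. Their Y boxes began at positions -50, -61, -45, -59, -63 and -92 from the starts in the RefSeq table, in the same order, and these starts differ from the GENCODE gene starts given with the members below. The H2-DMb1 and H2-DMb2 stretches were identical at 58 of 67 positions. These are matches of letters only, and none of the libraries measured what is bound there.

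The members spanned a wide range of abundance. Levels are given as CPM, each library's counts scaled to one common total after TMM scaling. With a 3′ end kit each transcript gives reads near its end, so that CPM does not grow with transcript length as it does for whole-transcript libraries. The mean level over the 6 libraries ran from 15.0 CPM for H2-DMb2 to 14686 CPM for H2-Aa, which ranked 3 of all genes tested. H2-Ab1 ranked 6, H2-Eb1 7 and Cd74 10. On the CPM scale the order of levels was H2-Aa, H2-Ab1, H2-Eb1, Cd74, H2-Ob, H2-DMb1, H2-Oa, Ciita, H2-DMa and H2-DMb2. Of the 9 pairs of neighbours in this order, the libraries overlapped in 2: H2-Ab1 with H2-Eb1, and H2-Oa with Ciita. Per kilobase of annotated exon (GENCODE M21), the mean level was 3867 CPM for H2-Aa, 3820 for H2-Eb1, 2912 for H2-Ab1 and 2621 for Cd74, followed by 240.2 for H2-DMb1, 235.2 for H2-Ob, 132.2 for H2-Oa, 14.5 for Ciita, 12.8 for H2-DMa and 8.60 for H2-DMb2. H2-Eb1 and H2-DMb1 each moved up by a place on that scale, which suits whole-transcript libraries rather than these 3′ end libraries. The 10 members together made up 3.46% to 3.65% of counts in WT libraries and 3.58% to 3.74% in KO libraries, and the groups overlapped.

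**Figure D1:**
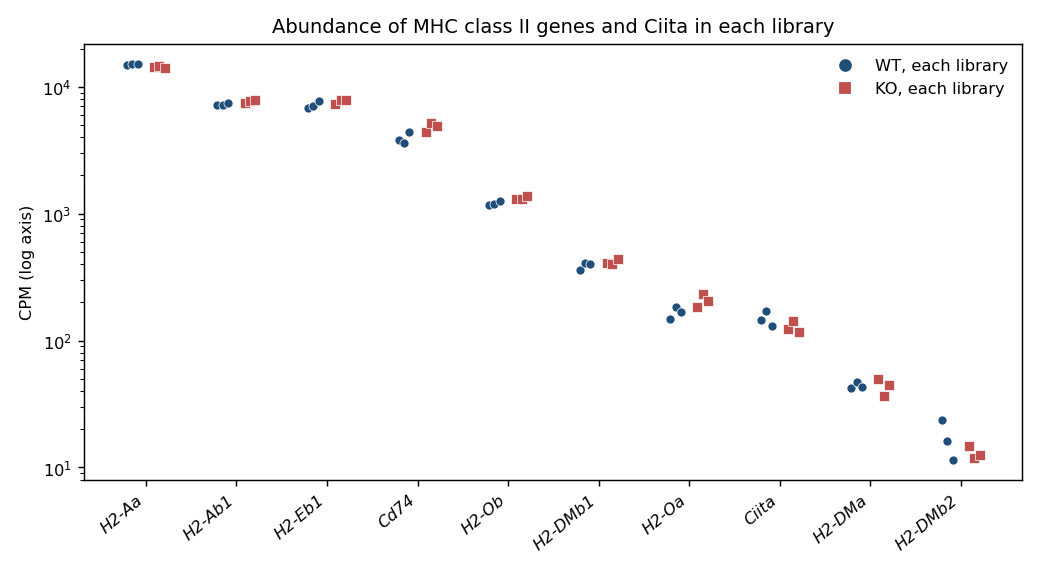
Level of each member in each library in CPM (logarithmic axis), with circles for the 3 WT libraries and squares for the 3 KO libraries. Members run from the most abundant, H2-Aa at a mean of 14686 CPM, to H2-DMb2 at 15.0 CPM, and for every member the spread between libraries is small beside this range.

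To ask whether loss of GPR174 altered these genes after 1 h, WT and KO libraries were compared over all tested genes with edgeR. Every library compared here was taken after 1 h. A difference present before culture therefore cannot be told apart from one that arose in culture. A gene is called when its adjusted p is under 0.05, and log2 fold changes are WT over KO. Of the 10 members 1 was called, Cd74, which was lower in WT, and 0 were called higher. Over all tested genes 1.82% were called, 0.514% lower and 1.30% higher in WT. At an unadjusted p under 0.05 there were 4 members (Cd74, H2-Oa, Ciita and H2-Ob), against 11.9% of all genes. DESeq2 and limma-voom each called 1 member, also Cd74, while without WT replicate 2 edgeR called 1 member, H2-Oa in place of Cd74. The log2 fold change was below 0 in 6 members, against 50.4% of all tested genes, and above 0 in 4. It ran from -0.31 for H2-Oa to 0.40 for H2-DMb2. Its median was -0.09 over the members and -0.003 over all tested genes. WT and KO values did not overlap in 3 of the 10 members, against 16.7% of all tested genes. H2-Aa was higher in WT (8.43% of all genes), and H2-Ab1 and H2-Ob were lower in WT (8.28% of all genes). In bulk RNA, less RNA per cell and fewer cells of a type cannot be told apart. The study reports that the sorted B cells of both genotypes were nearly pure.

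**Figure D2:**
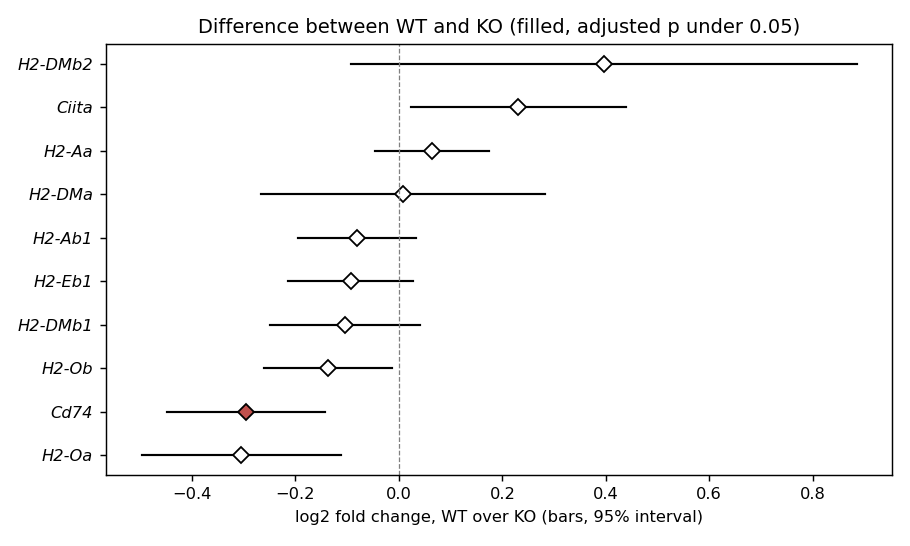
Log2 fold change, WT over KO, of each member (diamonds) with its 95% interval (bars), where the filled diamond marks an edgeR adjusted p under 0.05. Cd74, at -0.30, is the called member, and 6 of the 10 diamonds lie below 0.

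The chains of the classical molecules differed little between groups, and none was called. H2-Aa encodes the α chain of I-A (chromosome 17, 34282744 to 34287823, mm10). It was at 14761, 15171 and 15104 CPM in WT replicates 1 to 3 and at 14340, 14702 and 14036 CPM in KO replicates 1 to 3. Every WT library was therefore above every KO library, by a narrow margin. WT over KO, this was a log2 fold change of 0.06 ± 0.05 (SE, adjusted p = 0.710 by edgeR), or 0.11 with offsets for GC content. H2-Ab1 (chromosome 17, 34257689 to 34269419), the β chain that pairs with H2-Aa, was at 7177, 7135 and 7491 CPM in WT and at 7494, 7708 and 7860 CPM in KO. Here every WT library was below every KO library, with WT replicate 3 and KO replicate 1 nearly level. On the log2 scale WT differed from KO by -0.08 ± 0.06 (SE, adjusted p = 0.624 by edgeR), or by -0.02 with those offsets.

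The WT means of the I-A chains lay on opposite sides of the KO level, at 104.5% of it for H2-Aa and 94.5% for H2-Ab1. The ratio of H2-Aa to H2-Ab1, which does not depend on scaling between libraries, was 2.06, 2.13 and 2.02 in WT and 1.91, 1.91 and 1.79 in KO. The groups did not overlap in this ratio, which is given as a description. H2-Eb1 (chromosome 17, 34305867 to 34316674) encodes the β chain of I-E. It was at 6805, 7062 and 7688 CPM in WT and at 7295, 7905 and 7797 CPM in KO. The groups overlapped, and the log2 fold change was -0.09 ± 0.06 (SE, adjusted p = 0.583 by edgeR), with -0.05 when WT replicate 1 was left out and -0.15 when WT replicate 3 was.

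C57BL/6 mice carry a defective gene for the I-E α chain, so that H2-Eb1 has no partner there. H2-Ea-ps, the annotated pseudogene of that chain, had 35 counts over the 6 libraries, of which 18 were in WT replicate 1, and it did not pass the filter. H2-Eb2, a further β-like gene of the locus that is not among the 10, averaged 296.2 ± 11.6 in WT against 316.6 ± 7.38 in KO (CPM, mean ± SD, n = 3 each), for a log2 fold change of -0.10 ± 0.07 (SE, adjusted p = 0.655 by edgeR). Its promoter, at chr17:34325425-34325724, also held an X box core before a Y box. Btnl2, a butyrophilin-like gene at the end of the locus, averaged 5.04 CPM in WT against 5.26 CPM in KO and was not called (edgeR adjusted p of 0.970).

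Cd74 (chromosome 18), the invariant chain, was the member with a call. It was at 3819, 3594 and 4441 CPM in WT and at 4426, 5215 and 4909 CPM in KO. WT replicates 1 and 2 were below every KO library, while WT replicate 3 was level with KO replicate 1, so that the groups overlapped. The mean was 3951 ± 439 in WT against 4850 ± 398 in KO (CPM, mean ± SD, n = 3 each), or 81.5% of the KO level. This amounted to a log2 fold change of -0.30 ± 0.07 (SE, 95% interval -0.45 to -0.14, adjusted p = 0.0399 by edgeR). The direction was the same in all 18 alternatives. Leaving out one library ended the call in 4 of 6 cases: without WT replicate 1 (edgeR adjusted p of 0.123), WT replicate 2 (0.140), KO replicate 2 (0.216) or KO replicate 3 (0.205). The log2 fold change in these fits was -0.27, -0.23, -0.24 and -0.29, respectively. It was also lost with offsets for GC content, at -0.22 on the log2 scale (adjusted p = 0.156 by edgeR). The last 500 bases of the longest Cd74 transcript were 56% G and C, against a median of 43.6% over tested genes.

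Relative to the classical chains of the same library, Cd74 was lower in WT, a comparison that rests on the same Cd74 counts as the call. Its ratio to the summed CPM of H2-Aa, H2-Ab1 and H2-Eb1 was 0.133, 0.122 and 0.147 in WT and 0.152, 0.172 and 0.165 in KO. The groups did not overlap in this ratio, and KO replicate 1 was the lowest KO library both in Cd74 and in the summed classical chains. Without Cd74, the summed level of the classical chains was 29465 ± 775 in WT against 29713 ± 593 in KO (CPM, mean ± SD, n = 3 each), and the groups overlapped. A microRNA gene, Mir5107, lies within Cd74 on the same strand. It held 13 counts in all against 257830 for Cd74.

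**Figure D3:**
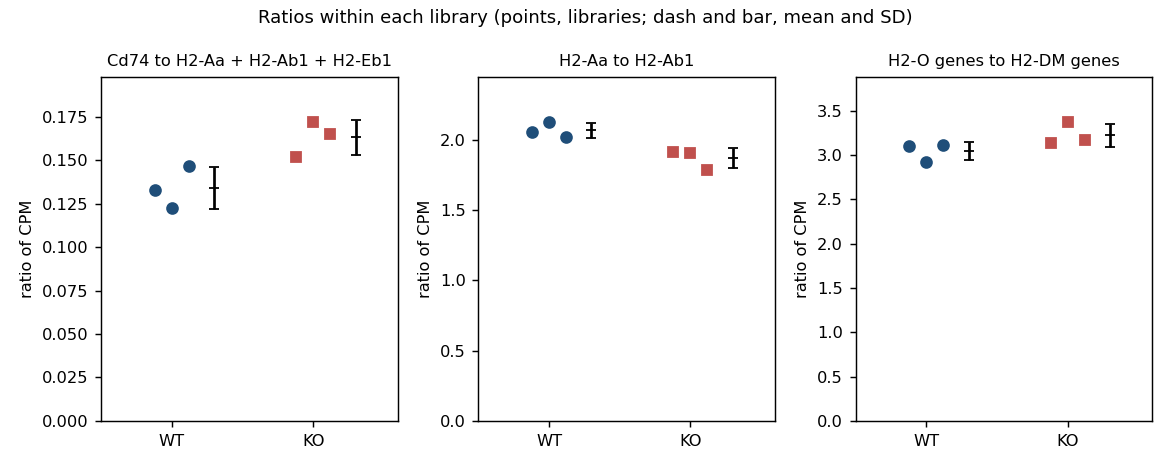
Ratios of CPM within each library: Cd74 to the 3 classical chains, H2-Aa to H2-Ab1, and the H2-O genes to the H2-DM genes. Points are libraries and bars are mean and SD of 3. The ratios with Cd74 and with H2-O are lower, and that of H2-Aa to H2-Ab1 higher, in every WT library than in any KO library. The ratios of H2-Ob to H2-Oa and of H2-DMb1 to H2-DMa, in which the groups overlapped, are not drawn.

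The 5 genes whose profile over the 6 libraries lay closest to that of Cd74 were Ccnh, Sepw1, Taf10, Blvrb and Rps20, out of 8553 compared at a mean count of 50 or more. Likeness was the root mean square difference of centred log2 CPM. It was 0.030, 0.035, 0.037, 0.044 and 0.048, against a range of 0.54 for Cd74 itself between its lowest and highest library. None of these 5 genes was called, with edgeR adjusted p values from 0.0700 for Blvrb to 0.356 for Ccnh.

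H2-DM, the peptide exchange factor, is made of an α chain, H2-DMa, and a β chain, H2-DMb1 or H2-DMb2. H2-DMb1 (chromosome 17, 34153072 to 34160230) was at 359.5, 408.1 and 400.3 CPM in WT and at 410.9, 403.3 and 440.8 CPM in KO. The groups overlapped, WT replicate 1 lay lowest, and the log2 fold change was -0.10 ± 0.07 (SE, adjusted p = 0.619 by edgeR). It was -0.05 without WT replicate 1, -0.07 without KO replicate 3 and -0.05 with offsets for GC content. H2-DMb2 (chromosome 17, 34143307 to 34151555) was far less abundant, at 23.6, 16.2 and 11.4 CPM in WT and 14.7, 11.8 and 12.5 CPM in KO.

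The WT libraries of H2-DMb2 were spread widely, with a CV of 36.2%, and overlapped the KO libraries. WT differed from KO by a log2 fold change of 0.40 ± 0.24 (SE, 95% interval -0.09 to 0.89, adjusted p = 0.548 by edgeR). Without WT replicate 1, the highest library, the log2 fold change was 0.08, and without WT replicate 3, the lowest, it was 0.62. The paralogs cannot be fully separated: 92 of 451 windows of 50 bases, the read length, in the last 500 bases of H2-DMb1 also occur in H2-DMb2. In the last 500 bases of H2-DMb2, 82 of 451 windows occur in transcripts of 296 other genes, and H2-DMb1 is not among these. Counts of both are uncertain to that extent.

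H2-DMa (chromosome 17, 34119541 to 34139101) was at 42.5, 47.3 and 42.9 CPM in WT and at 50.2, 36.8 and 44.8 CPM in KO. All WT values lay inside the range of the KO values. The log2 fold change was 0.01 ± 0.13 (SE), with a 95% interval from -0.27 to 0.28, and its sign turned with upper-quartile factors, with library totals alone, without WT replicate 2 and without KO replicate 2. Brd2, a bromodomain gene on the opposite strand, overlaps the exons of H2-DMa and held 43431 counts against 2589. Whether counting used the strand was not stated, so reads of the pair may be mixed. Brd2 had a fold change of 0.27 (log2, adjusted p = 0.083 by edgeR).

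The H2-O genes were both lower in WT by their means, and neither was called. H2-Ob (chromosome 17, 34238903 to 34254414), the β chain, was the more abundant, at 1172, 1195 and 1248 CPM in WT and 1308, 1294 and 1374 CPM in KO. Every WT library was below every KO library, and the CV within each group was 3.2%. Fitted as WT over KO, the log2 fold change was -0.14 ± 0.06 (SE, 95% interval -0.26 to -0.01, adjusted p = 0.353 by edgeR).

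H2-Oa (chromosome 17, 34092340 to 34095234), the α chain, was at 147.8, 184.5 and 167.0 CPM in WT and at 182.2, 230.9 and 203.4 CPM in KO. The groups overlapped, since WT replicate 2 stood above KO replicate 1. The WT mean was 81.0% of the KO mean, a difference as large as that of Cd74, and the log2 fold change was -0.31 ± 0.09 (SE, 95% interval -0.50 to -0.11, adjusted p = 0.109 by edgeR). It passed the threshold without WT replicate 2, at -0.39 on the log2 scale (adjusted p = 0.0284 by edgeR). With offsets for GC content it was -0.21 (edgeR adjusted p of 0.409). The last 500 bases of H2-Oa were 57.6% G and C, the highest of the 10 members.

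A non-coding transcript annotated on the opposite strand, BC051537, overlaps H2-Oa at its 3′ end, and 182 of 451 windows of 50 bases there belong to both genes. BC051537 averaged 29.4 ± 2.59 in WT against 36.2 ± 4.96 in KO (CPM, mean ± SD, n = 3 each). Its log2 fold change of -0.30 was close to that of H2-Oa and was not called (edgeR adjusted p of 0.441). The counts of the pair were 17.6 of BC051537 for every 100 of H2-Oa, and they are uncertain without strand.

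The summed level of the H2-O genes was 1320, 1379 and 1415 CPM in WT and 1490, 1525 and 1578 CPM in KO. That of the H2-DM genes was 425.7, 471.6 and 454.6 CPM in WT and 475.8, 451.9 and 498.1 CPM in KO. WT and KO libraries did not overlap in the H2-O sum and overlapped in the H2-DM sum. The ratio of H2-O to H2-DM genes was 3.10, 2.92 and 3.11 in WT and 3.13, 3.37 and 3.17 in KO. The groups did not overlap, though WT replicate 3 and KO replicate 1 differed by less than 1 SD of either group. The ratio of H2-Ob to H2-Oa was 7.93, 6.48 and 7.48 in WT and 7.18, 5.60 and 6.76 in KO. That of H2-DMb1 to H2-DMa was 8.45, 8.62 and 9.33 in WT and 8.19, 10.9 and 9.83 in KO. The groups overlapped in both of these ratios. Among single tested genes, 16.7% showed no overlap. These sums and ratios are descriptions.

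**Figure D4:**
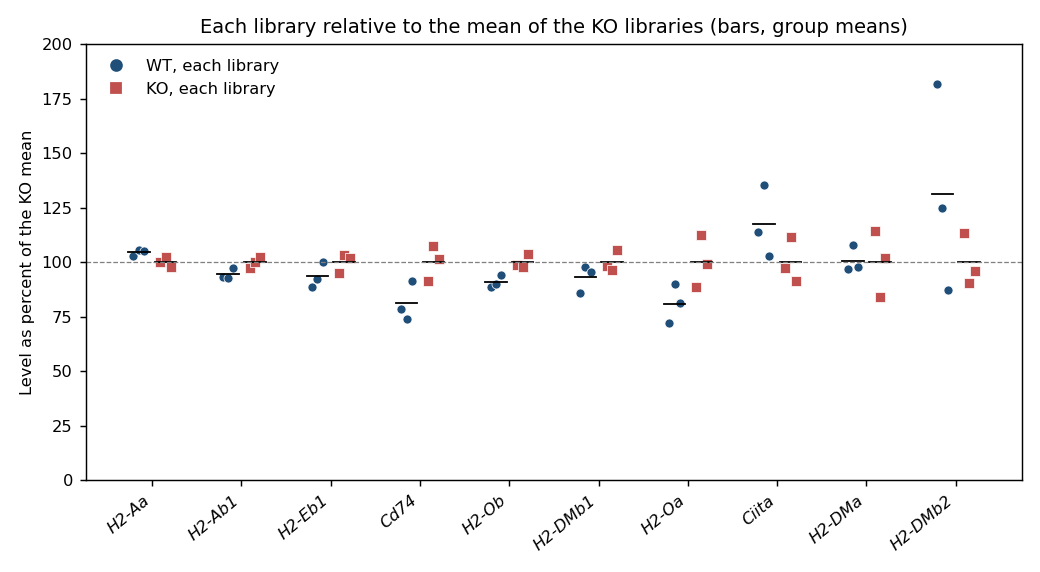
Level of each member in each library as a percent of the KO mean (axis from 0), with circles for WT, squares for KO and short bars for group means. WT means lie at 81.5% for Cd74 and 81.0% for H2-Oa, between 90.9% and 104.5% for 6 other members, and at 117.3% for Ciita and 131.2% for H2-DMb2, whose highest WT library is replicate 1.

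Ciita (chromosome 16, 10480059 to 10528418) had a higher mean in WT and was not called. It was at 144.8, 172.1 and 130.4 CPM in WT and at 123.7, 141.7 and 115.8 CPM in KO. The groups overlapped, as KO replicate 2 lay above WT replicate 3. The mean was 149.1 ± 21.1 in WT against 127.1 ± 13.3 in KO (CPM, mean ± SD, n = 3 each). This amounted to a log2 fold change of 0.23 ± 0.10 (SE, 95% interval 0.02 to 0.44, adjusted p = 0.352 by edgeR). In all 18 alternatives the log2 fold change stayed above 0, from 0.12 without WT replicate 2 to 0.32, and no alternative called it. At a later time of culture the study reports the opposite direction, with Ciita higher in GPR174-deficient cells. That was a separate experiment with another library kit, and the difference between the times was not tested here. Dexi, a gene on the opposite strand whose exons overlap those of Ciita, had 3675 counts against 8022 for Ciita and a value of -0.28 (log2, not called, adjusted p = 0.458 by edgeR). Of the 9 other members, 6 were below 0, with a median log2 fold change of -0.09.

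Members were also set against the mean of their own group. In WT replicate 1, 9 of the 10 members lay below their group mean on the log2 scale, H2-DMb2 being the exception, and in KO replicate 1 there were 8. In the other 4 libraries 3 to 5 members lay below it. Among 10405 tested genes with a count in every library, the share below the group mean was 48.4% to 49.7% in each of the 6 libraries. WT replicate 1 and KO replicate 1 were the deepest libraries of their groups, at 10876607 and 10944833 counts, and they share a replicate number. The part of depth or of a shared replicate number in these deviations was not tested.

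The transcription factors around the class II promoter were examined as a list of 22 genes, all tested. It held the RFX and NF-Y subunits, Creb1, coactivators, and factors that act on Ciita. Of these, 1 was called lower in WT and 0 higher, beside 1.82% of all tested genes called, and 5 had an unadjusted p under 0.05, beside 11.9%. The median log2 fold change was -0.02. The called gene was Irf4, an interferon regulatory factor of B cell activation and plasma cell fate. It was at 330.6, 401.6 and 388.0 CPM in WT and at 456.4, 488.7 and 507.3 CPM in KO. All WT libraries were below all KO libraries, a log2 fold change of -0.38 ± 0.07 (SE, adjusted p = 0.00430 by edgeR). The call was lost without WT replicate 1 (edgeR adjusted p of 0.0548) and without KO replicate 3 (0.0696).

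Among the subunits that bind the X and Y boxes, none was called. Rfx5, the RFX subunit with the DNA-binding domain, averaged 103.1 CPM in WT against 121.0 CPM in KO, for a log2 fold change of -0.23 ± 0.09 (SE, adjusted p = 0.284 by edgeR). Rfxank and Rfxap, its partners, differed by -0.08 and 0.29 on the log2 scale (adjusted p = 0.906 and 0.697 by edgeR). Creb1 averaged 218.3 CPM in WT against 216.6 CPM in KO. The NF-Y genes Nfya, Nfyb and Nfyc differed by 0.01, 0.05 and -0.24 (log2), with adjusted p between 0.710 and 0.989.

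Genes of endosomal processing, among them the cathepsins, the thiol reductase Ifi30 and the ubiquitin ligase March1 that turns over surface class II, formed a list of 17, of which 16 were tested. With edgeR 0 of the 16 were called, beside 1.82% of all tested genes, and 2 had an unadjusted p under 0.05, beside 11.9%. In this list limma-voom called 0 and DESeq2 called 1. The median log2 fold change was -0.03. The 2 genes were Ctsh and Lamp1. Ctsh, a lysosomal cysteine protease, was at 520.0, 490.5 and 561.9 CPM in WT and at 583.2, 647.9 and 633.9 CPM in KO, without overlap. The fitted log2 fold change was -0.25 ± 0.07 (SE, adjusted p = 0.0627 by edgeR), and it was the gene that DESeq2 called. Lamp1, a lysosomal membrane protein, had a fold change of 0.15 ± 0.07 (log2, SE, adjusted p = 0.421 by edgeR). Ctss, the protease that completes invariant chain degradation in B cells, averaged 1261 CPM in WT against 1249 CPM in KO, with a log2 fold change of 0.01.

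Markers of other cells that carry class II were low in these libraries. Of 10 dendritic cell markers listed, 7 were in the table, 4 were tested and 0 called, and their summed level was 20.3 to 30.3 CPM in WT and 18.6 to 25.1 CPM in KO. Clec9a, a marker of cross-presenting dendritic cells, was at 0 in 4 of the 6 libraries and held 10 counts in all. Of 12 macrophage and monocyte markers 9 were tested and 0 called, at 95.04 to 129.9 CPM in WT and 86.8 to 101.2 CPM in KO. Both sums overlapped between groups. The log2 fold change was above 0 in all 4 dendritic cell markers tested and in 8 of the 9 macrophage and monocyte markers, and the part of such cells in the members' values was not tested. T cell markers summed to 10.8 to 15.6 CPM in WT and 6.37 to 12.5 CPM in KO, with 0 of 4 tested genes called and all 4 above 0. Marginal zone B cell markers summed to 1282 to 1369 CPM in WT and 1255 to 1451 CPM in KO, with 0 of 8 called, and most of this sum was Cr2.

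Markers of the labelled cell type were present. Of 11 follicular B cell markers in the table all were tested, and their summed level was 5941 to 6337 CPM in WT and 6593 to 6804 CPM in KO, lower in every WT library. The log2 fold change was below 0 in 7 of the 11 and above 0 in 4 (Cd79a, Pax5, Ebf1 and Cxcr5). Of these 11, 1 was called, Cd79b, a signalling chain of the B cell receptor, with a log2 fold change of -0.39. Fcer2a, which encodes CD23, was at 403.4 to 447.9 CPM in WT and 470.4 to 571.0 CPM in KO, with an edgeR adjusted p of 0.0526. Plasma cell markers summed to 448.8 to 528.8 CPM in WT and 559.8 to 622.8 CPM in KO, of which most was Irf4, and Irf4 was the 1 called gene of the 5 tested. The study reports Fcer2a and Cd22, both in the follicular list, as higher in GPR174-deficient cells at a later time of culture. The summed level of these markers is therefore not a measure of cell identity alone. The summed level of the follicular B cell markers and that of Cd74 were lower in the same group, and the part of one in the other was not tested.

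The fold changes of Cd74, H2-Oa and Ciita are drawn under every alternative.

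**Figure D5:**
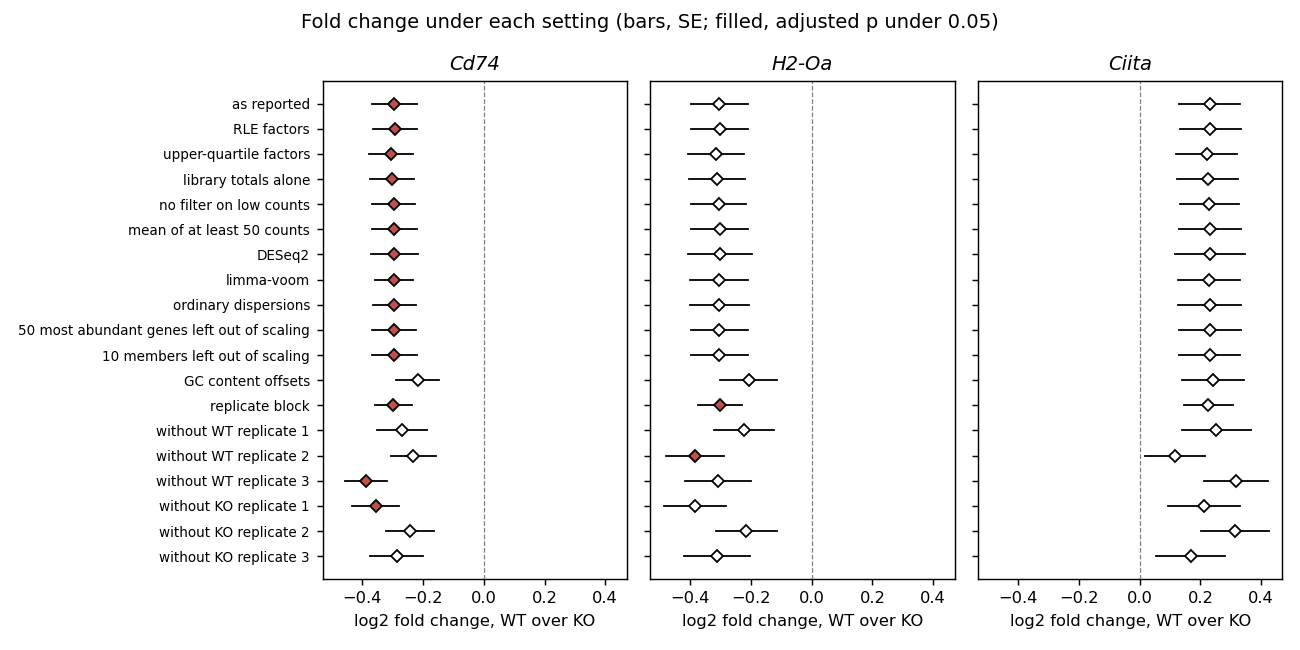
Log2 fold change, WT over KO, of Cd74, H2-Oa and Ciita as reported and under 18 alternatives (diamonds, with SE as bars; filled where the adjusted p was under 0.05). Cd74 and H2-Oa stay below 0 and Ciita above 0 throughout, and Cd74 loses its call with GC content offsets and in 4 of the 6 fits without one library.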

How the data were processed

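Per the study's methods and the labels, the authors made QuantSeq 3′ libraries, aligned 50-base single-end reads to mm10 with STAR and assigned them to genes with HTSeq. Their versions, annotation and the use of strand are not given in the sources used here. The deposited values are raw counts per gene, with no normalization, for 3 WT and 3 KO mice, and the smallest row total was 10 counts. Libraries carry no molecular identifiers. Groups were taken from the sample titles.

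Genes were filtered with filterByExpr and scaled by TMM factors in edgeR (version 4.0.16, R 4.3.3). Groups were tested two-sided by the quasi-likelihood method of edgeR (glmQLFit, robust, and glmQLFTest) with Benjamini-Hochberg adjustment over 10514 genes. An SE is the size of the log2 fold change over the root of its F statistic. Alternatives were other scalings and filters, DESeq2 (version 1.42.0), limma-voom (limma 3.58.1), ordinary dispersions, GC content offsets, a replicate block and omission of each library.

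Named were the 10 members, other genes of the locus, called genes of each list (or the 2 with the smallest p), and the 5 genes most like a called member; the binding subunits, Ctss and markers were named after their values were seen. Members and lists were chosen with earlier results of these data known. Gene positions are from GENCODE M21, and promoters and their starts from RefSeq (GRCm38.p6). List symbols absent from the table were sought through RefSeq synonyms.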

Additional observations from a re-analysis of the deposited data

How the results depend on the processing

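Of the 10 members, 7 kept their direction and their side of the threshold in all 18 alternatives. Cd74 kept its direction, from -0.39 to -0.22, and lost its call with GC content offsets (-0.22, edgeR adjusted p of 0.156). Omitting one library gave -0.39 to -0.23. H2-Oa gained a call with the replicate block (-0.30, edgeR adjusted p of 0.0232) and ranged from -0.39 to -0.22 without one library. H2-DMa, which was not called, changed sign with upper-quartile factors (-0.0033) and library totals alone (-0.00050), and ranged from -0.11 to 0.11 without one library. The causes were not tested.

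The number of members called was 0 with GC content offsets, 2 with the replicate block and 0 to 1 without one library. The number of all genes called was 191, and stayed within 1.5 times of this in every alternative that kept all libraries. With one library omitted it ranged from 91 (without KO replicate 3) to 183. Class II regulators gave 3 calls with the block and 0 to 1 without one library. The processing list gave 1 with a mean of at least 50 counts, 1 under DESeq2, 1 with the block and 0 to 1 without one library. The class I list gave 1 under DESeq2, 2 with the block and 0 to 1 without one library.

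Whether the replicate numbers of the titles pair the mice is not stated in the sources used here. Deviations from group means correlated by 0.05, 0.01 and 0.04 for libraries that shared a number, and by -0.04 to -0.003 for the others. Each library correlated best with its own number, and correlations this small cannot decide whether the mice were paired. With the block 281 genes were called, Cd74 among them (edgeR adjusted p of 0.00836). GC content was known for 90.6% of tested genes. Over all genes the median log2 fold change lay between -0.01 and -0.0004 under the other scalings. Intervals rest on 3 mice per group, and the members with fewest counts, H2-DMb2 (892 in all) and H2-DMa (2589), had the widest.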

Other observations

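Genes of MHC class I presentation, only some of which lie in the same locus, were examined for comparison. Class I molecules load peptide in the endoplasmic reticulum. Of 19 genes, all were tested. With edgeR 0 were called, beside 1.82% of all tested genes, and 2 had an unadjusted p under 0.05, beside 11.9%. DESeq2 called 1 and limma-voom 0. The log2 fold change was below 0 in 14, beside 50.4% of all tested genes. The median was -0.09, the same as over the class II members, beside -0.003 over all tested genes. Tap1, a subunit of the peptide transporter, was at 172.7, 199.1 and 227.4 CPM in WT and at 226.4, 287.5 and 250.7 CPM in KO, for a log2 fold change of -0.35 ± 0.10 (SE, adjusted p = 0.0750 by edgeR). The groups overlapped, since WT replicate 3 was level with KO replicate 1, and this was the gene called by DESeq2. Psmb8, an immunoproteasome subunit, had a fold change of -0.21 ± 0.09 (log2, SE, adjusted p = 0.318 by edgeR). H2-K1 and H2-D1, the classical heavy chains, had log2 fold changes of -0.09 and 0.07. B2m, their light chain, averaged 4364 CPM in WT against 4722 CPM in KO, with a log2 fold change of -0.11 ± 0.10 (SE).

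Nlrc5, the class I counterpart of Ciita, averaged 45.7 CPM in WT against 53.0 CPM in KO, for a log2 fold change of -0.22 ± 0.22 (SE, adjusted p = 0.784 by edgeR). The direction was opposite to that of Ciita and neither was called, and the difference between the 2 genes was not tested. Nlrc5, H2-K1, H2-D1 and B2m were named after their values were seen.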
